A study of Mus musculus with 4 samples.

Results

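The genes described here encode laminin chains and the proteins that tie laminin into the basement membrane. They were the rows of the deposited count table whose gene name was Lama2, Lama4, Lama5, Lamb1, Lamb2, Lamc1, Nid1, Nid2, Hspg2 or Agrn, which gave 10 of 51826 genes. All 10 passed the minimum mean raw count of 10 over the libraries, as did 16734 genes in all. RNA was sequenced from cultured mouse dermal papilla cells (DPCs), the mesenchymal cells at the base of the hair follicle, and from dermal sheath cells (DSCs), which wrap the follicle. Both were grown, in DMEM with 10% serum, from whisker follicles of C57BL/6J mice that carried an EGFP transgene and were 5 to 6 weeks of age; the labels give the genotype as WT. The 4 groups were DPCs at passage 3 (low passage, P3 below), DPCs at passage 9 (high passage, P9 below), and DSCs at the same passages, and each was 1 library. There were therefore no replicates, and no difference below has a replicate check. The passages also cannot be told apart from any difference in when the cells or libraries were prepared. DPCs were picked as papilla spheres from cut hair bulbs, whereas DSCs were grown from sheath pulled off the hair shaft after enzyme treatment of a portion that still held outer root sheath.

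Laminins are secreted heterotrimers of an alpha, a beta and a gamma chain, and they polymerize on the cell surface through their short arms while the end of the alpha chain binds integrins and dystroglycan. The nidogens Nid1 and Nid2 bind the gamma 1 chain and link the laminin network to type IV collagen. Perlecan (Hspg2) and agrin (Agrn) are heparan sulfate proteoglycans that fasten the network further and bind growth factors. In the hair follicle a basement membrane separates the dermal papilla and dermal sheath from the epithelium, and the papilla is known for its laminin-rich matrix.

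The site on which the linkage turns is short, and it is shown because Lamc1 and Lamc3 differ there and in their response to passage. The 21 bases below code for residues 831 to 837 of the predicted Lamc1 protein and 827 to 833 of Lamc3, in the coding strand of GENCODE M21 transcripts. On build GRCm38 they are at chr1:153243361-153243381 (minus strand, exon 14) for Lamc1 and chr2:31920598-31920618 (plus strand, exon 14) for Lamc3. This stretch of the gamma 1 chain is known to bind nidogen. Capitals mark bases that differ from Lamc1.
Lamc1: aacatagaccccaacgcggtt
Lamc3: aacGtGgaTcTcaaTgcTgtG
Lamc3 differed from Lamc1 at 7 of 21 bases and kept 5 of the 7 residues. Over the aligned proteins, identity to Lamc1 was 44.1%.

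RefSeq gave promoters, as windows from 250 bases before to 50 bases after a start site on build GRCm38.p6, for 7 of the 10 genes, and none for Lama4, Lamc1 and Nid2. Those of 4 genes are shown, a choice made after their values were seen. Their differences with passage had opposite signs in DPCs and DSCs, with counting intervals that excluded 0. The smaller log2 difference of each gene was slight, between -0.17 and 0.19, and the intervals cover reads only. Of each window, only the longest run free of annotated exons is printed. Lama2 is at chr10:27616943-27617192 (minus strand, inside the annotated gene, upstream of an internal start site), Lamb1 at chr12:31265043-31265233, Lamb2 at chr9:108479612-108479735 and Nid1 at chr13:13437352-13437550 (plus strand for these 3). Capitals mark matches, on either strand, to the GC box GGGCGG, to the TATA-type core promoter element TATAAA, to the NF-Y element CCAAT, to the AP-1 site TGACTCA or to the TEAD site GGAATG.
Lama2: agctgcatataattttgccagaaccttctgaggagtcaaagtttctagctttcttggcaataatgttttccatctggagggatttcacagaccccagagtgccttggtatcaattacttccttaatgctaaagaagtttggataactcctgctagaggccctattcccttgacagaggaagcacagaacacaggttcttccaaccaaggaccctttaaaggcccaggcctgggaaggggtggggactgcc
Lamb1: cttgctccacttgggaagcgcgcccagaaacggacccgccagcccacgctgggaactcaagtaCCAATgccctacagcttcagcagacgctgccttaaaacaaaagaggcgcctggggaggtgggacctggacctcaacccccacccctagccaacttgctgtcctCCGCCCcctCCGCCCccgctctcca
Lamb2: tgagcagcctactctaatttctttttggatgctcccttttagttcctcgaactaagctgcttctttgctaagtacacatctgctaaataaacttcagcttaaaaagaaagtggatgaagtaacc
Nid1: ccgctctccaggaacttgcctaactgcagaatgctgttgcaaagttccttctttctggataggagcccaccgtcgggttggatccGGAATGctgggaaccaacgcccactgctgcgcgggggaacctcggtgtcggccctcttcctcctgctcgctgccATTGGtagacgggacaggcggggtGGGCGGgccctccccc
Over the whole windows of 300 bases, of which Agrn had 2, a GC box match was found in 7 of 8, with Lamb2 as the exception, against 35.7% of all 32851 promoters in the table. The Lama2 match lay in the bases of its window that are not printed above. CCAAT matches were found for Lamb1 and Nid1 only, against 37.4% of all promoters, and the TEAD site letters for Nid1 only, against 14.7%. No window held TATAAA or TGACTCA, which 13.6% and 5.20% of all promoters held. The windows had a median GC content of 64.2% and a median of 19 CpG, against 52.7% and 7 over all promoters. These are descriptions of letters, and no measurement of binding was made.

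The total count was 35340038 in P3 and 34981284 in P9 DPCs, and 38780425 in P3 and 47604059 in P9 DSCs. Raw counts of the 10 genes lay between 1354 and 96281, so counting error was small. The level of a gene is given as scaled CPM, its reads per library size (CPM) after TMM scaling, which corrects for differences in library composition. A difference is given on the log2 scale with a 95% counting interval, which compares the reads of 2 libraries and not 2 conditions. Of 40 such intervals, 38 excluded 0, and 37 did with halved counts. Halving was tried because 61.1% to 64.0% of counts between 2 and 21 were even, as where both mates of a pair are counted. A gene was called at a 4-fold difference (a log2 difference of at least 2 either way), and 2-fold is given beside it.

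**Figure D1:**
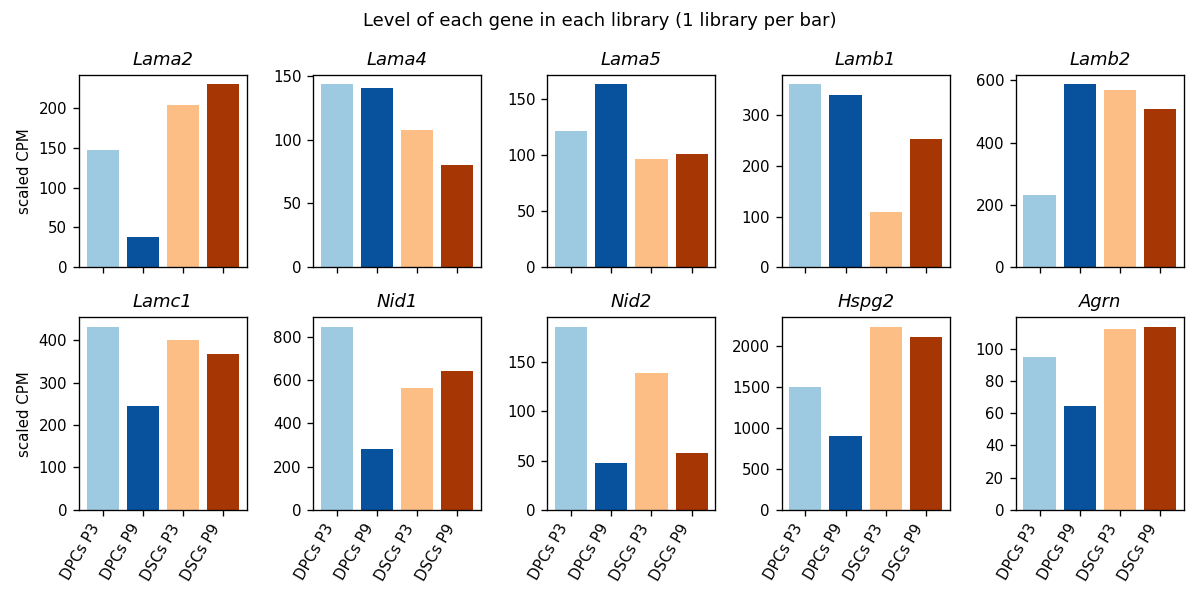
Scaled CPM (reads per library size after TMM scaling) of the 10 genes, with 1 bar per library, DPCs in blue and DSCs in orange, and the darker shade for passage 9. Each panel has its own axis from 0, and there are no error bars because each group is 1 library. Lama2 was lowest in P9 DPCs at 37.7, and Lamb1 was lowest in P3 DSCs at 109.

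Among the alpha chains, which set what receptor a laminin binds, Lama2 had the widest range of log2 CPM over the libraries, 2.61, against 0.84 for Lama4 and 0.76 for Lama5. Lama2 (ENSMUSG00000019899, chromosome 10, 26980036 to 27619758, minus strand), the alpha chain of muscle and nerve laminins, had 148 scaled CPM in P3 DPCs, 37.7 in P9 DPCs, 205 in P3 DSCs and 230.4 in P9 DSCs. P9 DPCs thus stood below the other libraries, while the DSC libraries held the highest levels. Lama2 was lower at P9 in DPCs, with a log2 difference of -1.97 (-2.06 to -1.88), a 3.91-fold difference just short of the threshold. In DSCs its log2 difference was 0.17 (0.13 to 0.21). The gap between the cell types was -0.47 (-0.52 to -0.42) at P3 and -2.61 (-2.69 to -2.53) at P9, a 6.10-fold difference and the only one of the 10 genes past 4-fold in any comparison. Of its exonic bases, 3.86% are shared with Gm48084 on the opposite strand, and the use of strand in counting was not stated.

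Lama4 (ENSMUSG00000019846, chromosome 10, 38965515 to 39110188, plus strand), the alpha chain of vessel and mesenchymal laminins, had 144 and 141 scaled CPM in DPCs at P3 and P9 and 108 and 80.0 in DSCs at P3 and P9. Both DPC libraries were above both DSC libraries. Its log2 difference with passage was -0.03 in DPCs, with an interval of -0.09 to 0.03, and -0.43 (-0.49 to -0.36) in DSCs. The DPC value was above 0 on the deposited FPKM (0.02) and with a minimum mean count of 100. Lama5 (ENSMUSG00000015647, chromosome 2, 180176373 to 180225859, minus strand), the alpha chain of most epithelial and endothelial laminins and one needed for hair growth, had 121 and 163 in DPCs and 96.4 and 101 in DSCs, in the same order. P9 DPCs held the highest level. Its log2 difference with passage was 0.43 (0.38 to 0.49) in DPCs and 0.07 (0.01 to 0.13) in DSCs, where the interval with halved counts ran from -0.02 to 0.16. The DPC difference was 0.05 on the deposited FPKM. DPCs were above DSCs at both passages for both genes, by 0.42 and 0.81 for Lama4 and by 0.33 and 0.69 for Lama5.

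The beta chains moved in different cell types. Lamb1 (ENSMUSG00000002900, chromosome 12, 31265234 to 31329644, plus strand), the widely used beta chain of the embryo, had 361 scaled CPM in P3 DPCs, 339 in P9 DPCs, 109 in P3 DSCs and 252 in P9 DSCs. P3 DSCs were thus the low library. Its log2 difference with passage was -0.09 (-0.13 to -0.06) in DPCs and 1.21 (1.16 to 1.26) in DSCs. DPCs exceeded DSCs by 1.73 (1.68 to 1.78) at P3 and by 0.42 (0.39 to 0.46) at P9.

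Lamb2 (ENSMUSG00000052911, chromosome 9, 108479736 to 108490530, plus strand), the beta chain that replaces beta 1 in synaptic, kidney and many mature basement membranes, had 233 scaled CPM in P3 DPCs, 589 in P9 DPCs, 569.6 in P3 DSCs and 507 in P9 DSCs. Here P3 DPCs were the low library and the other libraries lay close together. The log2 difference with passage was 1.34 (1.30 to 1.37) in DPCs and -0.17 (-0.19 to -0.14) in DSCs. DPCs were lower than DSCs at P3, with a log2 difference of -1.29 (-1.33 to -1.26), and 0.21 (0.19 to 0.24) higher at P9, so the order of the cell types turned around.

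Lamc1 (ENSMUSG00000026478, chromosome 1, 153218922 to 153332786, minus strand), the gamma chain of most laminins, had 432 scaled CPM in P3 and 245 in P9 DPCs, and 402 and 368 in DSCs at P3 and P9. P9 DPCs were below the other libraries. The log2 difference with passage was -0.82 (-0.86 to -0.78) in DPCs and -0.13 (-0.16 to -0.09) in DSCs. DPCs were 0.11 (0.07 to 0.14) above DSCs at P3, and the log2 difference was -0.59 (-0.63 to -0.55) at P9. The deposited FPKM gave other sizes for this gene, with -1.54 in DPCs with passage and 0.92 for DPCs over DSCs at P3. The FPKM of P3 DPCs, 89.0 against 30.6, 46.9 and 42.9 in P9 DPCs, P3 DSCs and P9 DSCs, was the value that stood apart, and the cause was not tested.

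The nidogens were both lower in P9 DPCs and parted in DSCs. Nid1 (ENSMUSG00000005397, chromosome 13, 13437551 to 13512269, plus strand), the main nidogen, had 847 scaled CPM in P3 DPCs, 281 in P9 DPCs, 563 in P3 DSCs and 642 in P9 DSCs. It was highest in P3 DPCs and lowest in P9 DPCs. The log2 difference with passage was -1.59 (-1.62 to -1.56) in DPCs, a 3.01-fold difference, and 0.19 (0.16 to 0.21) in DSCs. DPCs over DSCs went from 0.59 (0.56 to 0.61) at P3 to -1.19 (-1.22 to -1.16) at P9. Nid2 (ENSMUSG00000021806, chromosome 14, 19751257 to 19811787, plus strand), its less abundant relative, had 186 scaled CPM in P3 and 47.9 in P9 DPCs, and 139 and 58.0 in DSCs at P3 and P9. Both P9 libraries were below both P3 libraries. Its log2 difference with passage was -1.95 (-2.03 to -1.88) in DPCs, a 3.87-fold difference, and -1.26 (-1.33 to -1.19) in DSCs. DPCs over DSCs was 0.42 (0.37 to 0.47) at P3 and -0.28 (-0.37 to -0.19) at P9. Nid1 shares 2.06% of its exonic bases with Gm48682 and Nid2 8.45% with Rtraf, both on the opposite strand.

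The proteoglycans followed one pattern, with a lower level in P9 DPCs and differences near 0 in DSCs. Hspg2 (ENSMUSG00000028763, chromosome 4, 137468769 to 137570630, plus strand), perlecan, had 1497 scaled CPM in P3 DPCs, 904 in P9 DPCs, 2234 in P3 DSCs and 2113 in P9 DSCs, and took up to 0.218% of a library. Agrn (ENSMUSG00000041936, chromosome 4, 156165290 to 156197488, minus strand), agrin, had 94.7, 64.4, 112 and 114 in the same order. For both genes the DSC libraries were above the DPC libraries at each passage. The log2 difference with passage in DPCs was -0.73 (-0.75 to -0.71) for Hspg2 and -0.56 (-0.63 to -0.48) for Agrn. In DSCs it was -0.08 (-0.09 to -0.07) for Hspg2 and 0.02 for Agrn, whose interval of -0.04 to 0.08 included 0 and whose sign turned when libraries were scaled by total counts. DPCs over DSCs was -0.58 (-0.59 to -0.56) at P3 and -1.22 (-1.24 to -1.21) at P9 for Hspg2. The values for Agrn were -0.25 (-0.31 to -0.18) and -0.82 (-0.89 to -0.75).

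**Figure D2:**
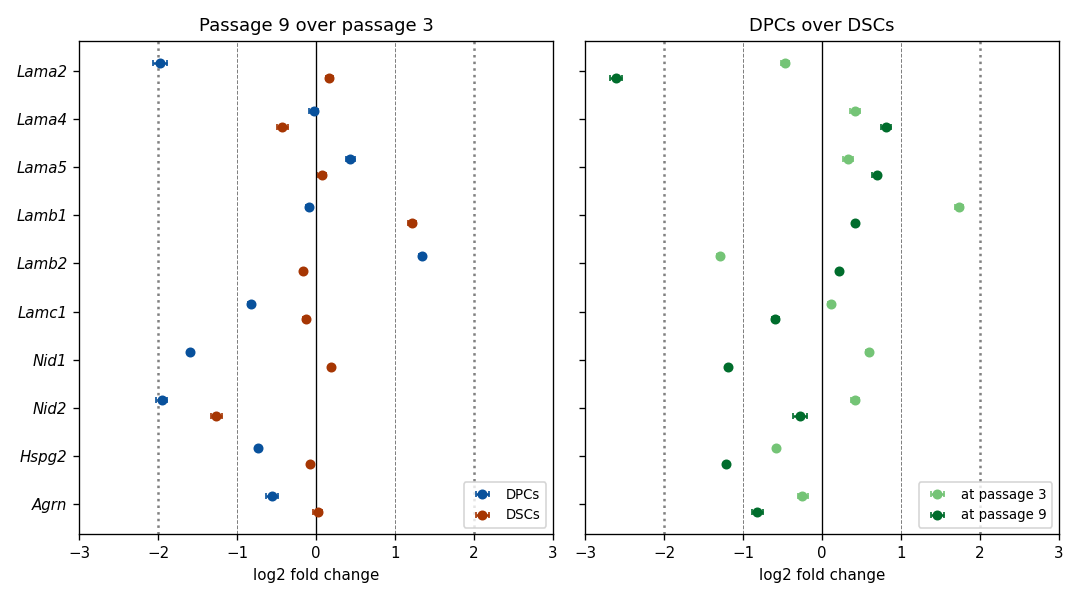
Log2 fold change of the 10 genes between passages (left, DPCs in blue and DSCs in orange-brown) and between cell types (right, passage 3 in light green and passage 9 in dark green), from scaled CPM with 95% counting intervals as bars. Dashed lines mark 2-fold and dotted lines 4-fold. Of the 40 points, 1 lies beyond a dotted line, Lama2 for DPCs over DSCs at passage 9 at -2.61.

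Across the list, 8 of 10 genes were below 0 with passage in DPCs and 5 of 10 in DSCs. The share of all tested genes below 0 was not counted, and their medians were 0.03 and 0. Of the 8, Lama4 (-0.03) and Lamb1 (-0.09) lay close to 0. In DPCs 0 of 10 were past 4-fold, where 9.94% of all tested genes were. At 2-fold, 1 gene (Lamb2) was higher, against a background of 16.1%, and 3 (Lama2, Nid1 and Nid2) were lower, against 15%. The median log2 difference of the 10 was -0.64, beside 0.03 over all tested genes. In DSCs 0 of 10 were past 4-fold, against 3.82%, with Lamb1 2-fold higher (background 8.55%) and Nid2 2-fold lower (6.21%). The median was -0.03, beside 0 for all genes.

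Between the cell types at P3, 0 of 10 were past 4-fold, where 4.3% of all genes were. Lamb1 was 2-fold higher in DPCs (background 5.43%) and Lamb2 2-fold lower (7.86%), and the median was 0.22 beside 0. At P9, 1 of 10, Lama2, was past 4-fold, where 6.42% of all genes were. None was 2-fold higher in DPCs (background 9.11%), and 3, Lama2, Nid1 and Hspg2, were 2-fold lower (11%). The median was -0.43 beside -0.01. These comparisons share libraries, since each library enters a passage comparison and a cell type comparison.

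**Figure D3:**
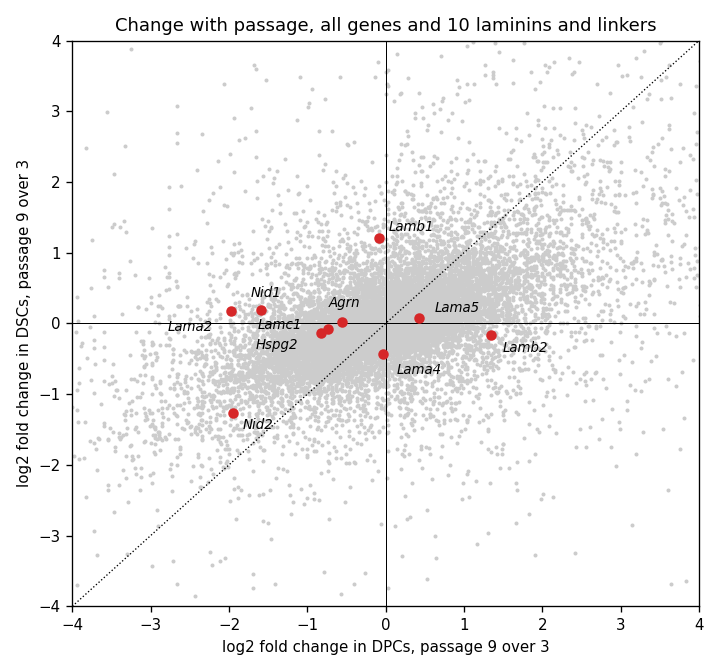
Log2 fold change with passage in DPCs (x axis) and in DSCs (y axis) for the 16734 tested genes in grey and the 10 laminin and linker genes in red; 376 genes lie outside the axes, which end at 4 and -4. The dotted line marks equal change, and Lama2 and Nid1 lie left of 0 near the horizontal line, at -1.97 and -1.59 in DPCs.

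An additive fit of cell type and passage over all 4 libraries asked whether passage moved a gene alike in both cell types. Its single residual degree of freedom is the difference between the responses of the cell types, not a spread between cultures. edgeR's quasi-likelihood test with Benjamini-Hochberg adjustment called 0% of the tested genes for passage and 0% for cell type at an adjusted p under 0.05, while 2822 and 1381 genes had a raw p under 0.05. DESeq2 (Wald test) called 955 and 496. Nid2, the only gene of the 10 more than 2-fold lower in both cell types, had a common log2 difference of -1.61 with passage and an edgeR adjusted p of 0.1877. The DESeq2 adjusted p was 0.0001572. For cell type, Lama2 had a log2 difference of -1.54, an edgeR adjusted p of 0.5771 and a DESeq2 adjusted p of 0.05114.

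Levels of different genes were set beside each other per length, on the deposited FPKM, to compare the chains within a library. Of the summed FPKM of Lama2, Lama4 and Lama5, Lama2 made up 30.7% (95% exact counting interval 30.0% to 31.4%) in P3 DPCs and 9.97% (9.47% to 10.5%) in P9 DPCs. In DSCs it made up 44.8% (44.1% to 45.6%) at P3 and 51.5% (50.8% to 52.2%) at P9. Lama2 was thus the largest alpha chain share in both DSC libraries and the smallest in P9 DPCs. Lama4 made up 44.3%, 57.1%, 37.5% and 30.0% of the alpha chain FPKM in DPCs at P3 and P9 and DSCs at P3 and P9, and Lama5 25.1%, 32.9%, 17.7% and 18.5%. With counts per kilobase of annotated exons instead, Lama5 (50.6%) and not Lama4 (41.2%) was the largest share in P9 DPCs. On that measure Lama5 (30.0%) was also above Lama4 (22.4%) in P9 DSCs, and Lama2 (28.7%) was the smallest share in P3 DPCs. The order of the chains in these libraries thus depends on the measure of length.

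Of the summed beta chain FPKM, Lamb1 made up 55.3% (54.6% to 56.0%) in P3 DPCs, 32.5% (32.0% to 33.0%) in P9 DPCs, 14.4% (14.0% to 14.8%) in P3 DSCs and 30.4% (29.9% to 30.9%) in P9 DSCs. The cell types were far apart at P3 and close at P9. On counts per kilobase of exon Lamb1 made up 48.8% in P3 DPCs, so which beta chain was larger there depends on the measure. Nid1 was the larger nidogen in every library, with 78.6%, 82.6%, 76.5% and 89.9% of the summed nidogen FPKM in the same order. Summed beta chain FPKM was 1.19 times that of Lamc1 in P3 DPCs and 5.65 times in P9 DPCs, against 2.54 and 2.96 times in DSCs. On counts per kilobase of exon these ratios were 1.43, 4.43, 2.16 and 2.45. P9 DPCs had the highest ratio on either measure.

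**Figure D4:**
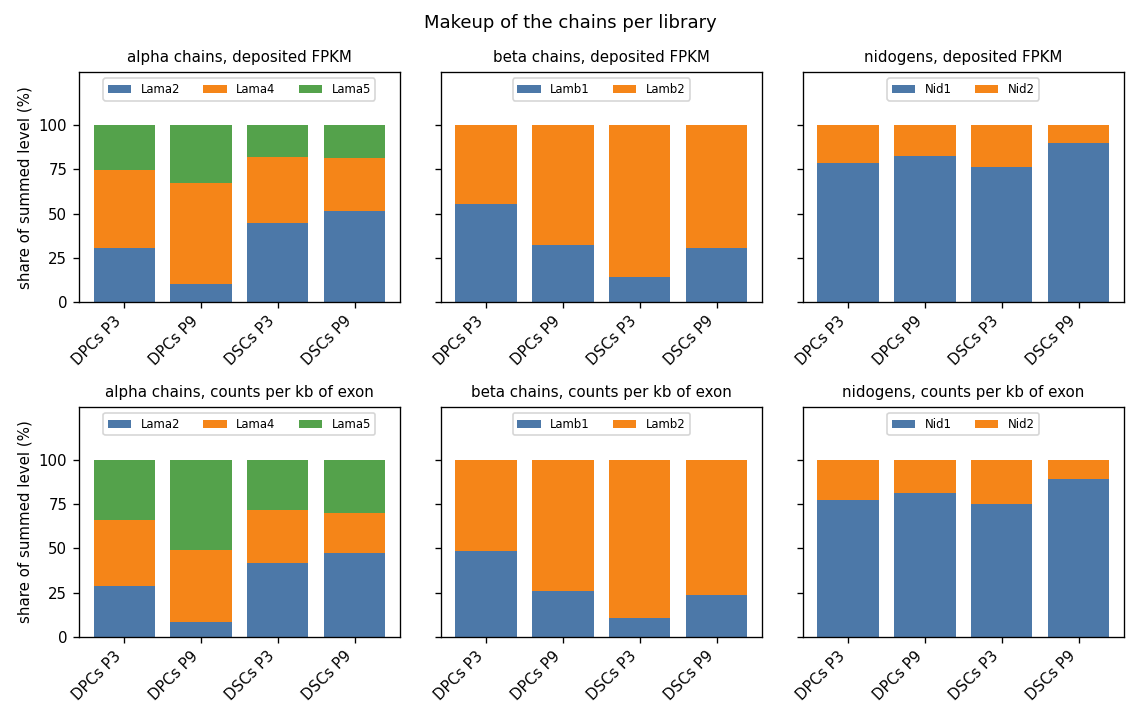
Share (%) of each gene in the summed level of the alpha chains, of the beta chains and of the nidogens in each library, on the deposited FPKM (top) and on counts per kilobase of annotated exon (bottom). The Lama2 share is smallest in P9 DPCs, at 9.97% and 8.17%, and the Lamb1 share is smallest in P3 DSCs, at 14.4% and 10.5%.

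Likeness of pattern was measured as the distance between the centred log2 CPM of 2 genes over the 4 libraries, and it describes 4 points only. Among the 10 genes the closest pairs were Lamc1 and Agrn (0.36), Hspg2 and Agrn (0.39), Lama4 and Lama5 (0.49) and Lamc1 and Nid1 (0.59). The farthest pair was Lama2 and Lamb1 (3.02). Of 12191 other genes with a mean count of at least 100, those nearest to Lama2, the member with the widest range (2.61), were Ctgf (0.217), a matricellular protein, Eml2 (0.242), a microtubule-binding protein, Tspyl3 (0.323), Foxd1 (0.363), a forkhead transcription factor, and Itga11 (0.366), an integrin subunit that binds collagen.

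The other genes of the basement membrane were taken from lists. The background for each list below is the share of all tested genes past 4-fold either way. It was 9.94% in DPCs and 3.82% in DSCs with passage, and 4.3% at P3 and 6.42% at P9 between the cell types. The lists are short, and no list was tested against this background. Of 4 other laminin chains, 1 was 4-fold higher and 1 was 4-fold lower with passage in each cell type, with medians of 0.01 in DPCs and -0.77 in DSCs. Lamc3, a gamma chain of retina and nerve, had 53 counts in P3 and 1191 in P9 DPCs, and 66 and 530 in DSCs at P3 and P9. The log2 differences with passage were 4.48 (4.13 to 4.95) and 2.70 (2.37 to 3.13), the opposite direction to Lamc1, but its FPKM of 5.18 in P9 DPCs was still below the 30.6 of Lamc1. Lama1, the alpha chain of early embryonic laminin, had 41 and 0 counts in DPCs and 83 and 38 in DSCs, which is at least 13.3-fold lower in P9 than in P3 DPCs when a count of 0 is taken as up to 3. Lamb3, the beta chain of the epidermal laminin, had 32 and 10 counts in DPCs and 135 and 30 in DSCs, with a log2 difference of -2.35 (-3.06 to -1.86) in DSCs. Lama1 and Lamb3 were thus at low levels next to the 10 genes described above. Lamc3 was not in P9 DPCs, where its FPKM of 5.18 was above the 4.09 of Lama2.

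Type IV collagen forms the partner network of laminin. Of its 6 chains, 2 were 4-fold higher with passage in DPCs and 3 in DSCs, and 0 were 4-fold lower in either. Those higher were Col4a3 (log2 difference 3.00 in DPCs and 2.14 in DSCs) and Col4a4 (2.52 and 2.68), chains of kidney and lung membranes, and in DSCs Col4a6 (2.02, interval 1.16 to 3.55). Their highest count was 241, whereas Col4a1, the main chain, had 144875 counts in P3 and 40792 in P9 DPCs. Col4a1 differed by -1.79 (-1.81 to -1.78) with passage in DPCs and by 0.08 (0.07 to 0.09) in DSCs. Col4a2, its usual partner, differed by -0.83 and 0.28 and Col4a5 by -0.21 and 0.76. Col4a6 differed by 0.65 in DPCs, with an interval of -0.22 to 1.67 that included 0. The list medians were 0.22 and 1.39.

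Of 16 other basement membrane components, 15 passed the minimum count and Frem2 did not. With passage, 1 was 4-fold higher and 4 were 4-fold lower in DPCs, and 1 was higher and 1 lower in DSCs, with medians of -0.97 and -0.19. Egflam (pikachurin), which binds dystroglycan, was higher in both, by 3.58 (3.45 to 3.73) and 3.48 (3.11 to 3.97). Col18a1, a collagen with heparan sulfate chains, was lower in DPCs (-2.98, interval -3.16 to -2.82) and had -0.78 in DSCs. Tinagl1, a laminin-binding matrix protein, had -2.18 in DPCs and -0.54 in DSCs. Col15a1, a related collagen, had 33 counts in P3 DPCs and 101 in P3 DSCs and 0 at P9, which makes P9 lower by at least 10.7-fold and 40.5-fold. Smoc1, a calcium-binding matrix protein, had 13 counts in P3 and 0 in P9 DPCs, which is at least 4.23-fold lower.

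Between the cell types, its relative Smoc2 was higher in DPCs by 3.85 (3.66 to 4.08) at P3 and 4.40 (4.26 to 4.56) at P9. Egflam was higher in DPCs at both passages as well (3.18 and 3.28). Frem1, which anchors epithelium to dermis, was 4-fold lower in DPCs at P3 (-2.25) and had 1.18 at P9. At P9 Col18a1 (-2.57), Tinagl1 (-2.78) and Smoc1 (0 against 53 counts, at least 13.9-fold) were 4-fold lower in DPCs, and Smoc1 was so at P3 (-2.35). Lama1 was at least 9.97-fold lower in DPCs at P9.

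Of 18 receptors, 1 was 4-fold higher and 2 were 4-fold lower with passage in DPCs, and 0 and 1 in DSCs, with medians of 0.25 and 0.03. Itga6, the alpha subunit of the main laminin integrins, had 455 counts in P3 and 32 in P9 DPCs, and 551 and 203 in DSCs. The log2 differences were -3.72 (-4.36 to -3.28) and -1.69 (-1.95 to -1.47). Itga7, its relative in muscle, was 2-fold higher in both, by 1.44 (1.35 to 1.53) and 1.65 (1.54 to 1.76); it is named after its value was seen. Of the agrin receptor pair, Lrp4 was higher in DPCs (2.37, interval 2.17 to 2.60) and had -0.18 in DSCs, and Musk was lower in both (-3.14 and -2.36) at counts of 285 or fewer. Itga2, a subunit that binds collagen and laminin, was lower in DPCs than in DSCs, with log2 differences of -4.04 (-4.35 to -3.79) at P3 and -5.23 (-5.92 to -4.78) at P9. At P9 Itga6 (-2.26) and Musk (-3.18) were 4-fold lower in DPCs as well, and Musk also at P3 (-2.40).

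Among 12 enzymes that build the dystroglycan sugar to which laminin binds, 11 passed the minimum count and Large2 did not. In DPCs 1 was 4-fold higher with passage, Pomgnt2 (2.36, interval 2.21 to 2.54), which had 1.00 in DSCs, and 0 were lower. In DSCs 0 passed 4-fold either way. The medians were 0.22 and 0.20. Of 18 enzymes of heparan sulfate chains, which perlecan and agrin carry, 2 were 4-fold higher in DPCs and 0 in DSCs, and 0 were 4-fold lower, with medians of 0.07 and 0.15. These were Sulf2, which removes sulfate from the chains (2.56, interval 2.51 to 2.63, and 1.42 in DSCs), and Hpse, heparanase, which cuts them (2.31, interval 1.46 to 3.85, from 8 to 46 counts).

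**Figure D5:**
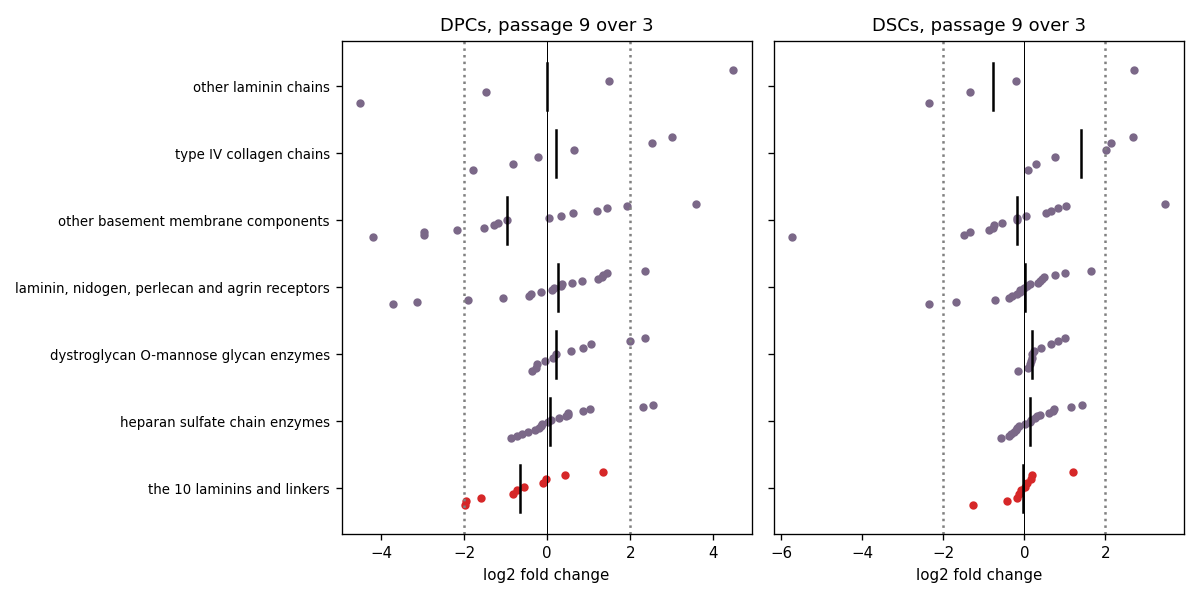
Log2 fold change with passage of each tested gene of the 6 lists and of the 10 laminins and linkers (red), in DPCs (left) and DSCs (right), with black bars at the list medians and dotted lines at 4-fold. The 10 genes have medians of -0.64 in DPCs and -0.03 in DSCs; genes at a count of 0 are drawn at their fitted value.

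Markers of cell types moved beside these genes, and their part in the results was not tested. In DPCs at P3 and P9 and DSCs at P3 and P9, the summed scaled CPM of 5 fibroblast markers was 14170, 4803, 22710 and 20388. The lowest sum was in P9 DPCs, where Lama2, Lamc1, Nid1, Nid2, Hspg2 and Agrn were lowest and Lama5 and Lamb2 were highest. The markers did not move as one, since Col1a1 had 266500 counts in P3 and 43703 in P9 DPCs, while Pdgfra had 11173 and 29093. Most of each sum came from Col1a1 and Col1a2. Dcn, a proteoglycan gene, had 4285 and 5494 counts in DPCs and 3292 and 89544 in DSCs, and Lum, a related gene, had 8 and 0 in DPCs and 0 and 109 in DSCs. The 5 markers of dermal sheath and smooth muscle gave 9245, 2524, 7433 and 6003, and Des was at 0 in both DPC libraries. Acta2 and Tagln made up most of these sums. In DPCs Acta2, Tagln, Myh11 and Cnn1 were all lower at P9. In DSCs at P3 and P9, Acta2 had 5728 and 4330 scaled CPM and Tagln 1589 and 1428. The other markers were higher at P9 in DSCs, with Myh11 at 28.03 and 69.34 and Cnn1 at 88.42 and 175.6. Des had 4 and 11 counts there. The 4 pericyte markers gave 183, 17.6, 368 and 119, with Abcc9 and Kcnj8 at 0 in every library. Nearly all of this was Cspg4, with 182, 17.3, 368 and 118 scaled CPM in the same order. Rgs5 had 16 and 11 counts in DPCs and 4 and 18 in DSCs, so the sum describes Cspg4 and not the list. The 8 dermal papilla markers gave 272, 185, 460 and 411 (173, 138, 149.6 and 69.5 without Ncam1, a choice made after its values were seen), and the counts of Corin, Prom1, Alpl and Lepr were 23 or fewer. Sox2 had 1677 and 1491 counts in DPCs and 269 and 178 in DSCs. Ncam1, a marker that the study also used for DSCs, had 3642 and 1673 counts in DPCs and 11755 and 15584 in DSCs, and Lef1 had 508 and 2 in DPCs and 101 and 55 in DSCs. In these bulk libraries, fewer cells of a type and less RNA per cell cannot be told apart.

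The epithelial keratins and cadherin Krt5, Krt14, Krt15 and Cdh1 were at 0 in all libraries, and the 8 keratinocyte markers summed to between 2.39 and 3.45. Endothelial (6 markers, 1.29 to 8.04), Schwann (6, 5.38 to 17.4), melanocyte (5, 11.2 to 28.3) and immune (5, 9.03 to 32.9) lists were low, and Tyr, Dct, Mlana and Cd3e were at 0 throughout. Sox10 and Cdh19 were at 0 in both P9 libraries. Of the 6 skeletal muscle markers, Myod1, Ckm, Pax7 and Myf5 were at 0 throughout, and the sum ran from 0.362 in P9 DPCs to 48.4 in P3 DSCs. This sum was Acta1, an actin gene, alone, except in P9 DSCs, where Myog had 2 counts. Mitochondrial genes took 4.27% of counts in P3 and 7.88% in P9 DPCs, and 4.91% and 5.65% in DSCs.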

How the data were processed

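Each of the 4 groups was 1 library, grouped by the labels. The authors deposited raw counts per gene, not normalized, and FPKM values, which they had scaled for transcript length and depth. Per the labels, 1 ug of total RNA went into a TruSeq kit, while the methods name an NEBNext kit with poly-T selection and paired-end sequencing. The submitters' processing notes list Bowtie 0.12.2 and builds mm8 and mm9 with no role; the counting program was not given in the sources used here. The gene IDs and positions are those of GRCm38: 51633 of 51826 IDs were in GENCODE M21, and 94.08% of these had the same position (Nid2 did not).

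Counts were scaled by TMM in edgeR 4.0.16 (R 4.3.3, limma 3.58.1) on the 16734 genes with a mean count of at least 10, and log2 CPM values (prior count 2) were subtracted to give fold changes. Intervals are 95% Clopper-Pearson intervals, from how the reads of 2 libraries divide between them. They cover only counting error, as do floors. Where no read was counted, up to 3 counts per library were allowed (6 if both mates were counted, so that bounds would be 2 times smaller). Spread between cultures was not measured. The additive model used edgeR's quasi-likelihood test, and DESeq2 1.42.0 was the alternative. Counts per kilobase used annotated exons. Proteins were aligned with Biopython 1.88. Scripts were tested on simulated data. Alternatives were other scalings, prior counts, filters, the FPKM with a pseudocount of 0.1 or 1, and a 2-fold threshold.

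The 10 genes, the lists and the markers were chosen with earlier results of these data known. From each list, genes past 4-fold in any comparison are named, with a few others for context that were picked after their values were seen. Rxylt1 is listed as Tmem5 in the table. Of the genes on the lists, 2 are not reported here and were left out of the list counts.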

Additional observations from a re-analysis of the deposited data

Results flagged for a closer look

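Genes whose difference had opposite signs in 2 groups, with counting intervals that excluded 0 in both, are given here. These intervals cover reads only and not spread between cultures, so they cannot show that the groups responded in opposite directions. None of these contrasts between groups was tested, because each group was 1 library. With passage, Lama2 and Nid1 were lower in DPCs, while in DSCs they were higher by only 0.17 and 0.19. The log2 difference in DPCs minus that in DSCs was -2.14 for Lama2 and -1.78 for Nid1. For Lamb1 it was -1.30, from -0.09 in DPCs and 1.21 in DSCs, and for Lamb2 it was 1.51, from 1.34 and -0.17.

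Between the cell types, Lamc1, Nid1 and Nid2 were higher in DPCs at low passage and lower at high passage. The log2 difference of DPCs over DSCs at low passage minus that at high passage was 0.69 for Lamc1, 1.78 for Nid1 and 0.69 for Nid2. Lamb2 went the other way, at -1.51. These values use the same libraries as the passage values above and are not further evidence.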

How the results depend on the processing

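No paired analysis was possible because no group had a second replicate to pair; cell type entered the additive fit as a term. With 4-fold counts of 0, 0, 0 and 1 genes in DPCs and DSCs with passage and in DPCs over DSCs at P3 and P9, the 2-fold counts were 4, 2, 2 and 3. With no filter 1 gene, Lama2, came to 4-fold in DPCs with passage, since its value lay at the threshold. For the additive fit, DESeq2 gave 955 calls for passage and 496 for cell type where edgeR gave 0 and 0, and edgeR called 5 for cell type with DESeq2's size factors and 13 with a minimum mean count of 100. On the deposited FPKM 4 genes were 2-fold lower in DPCs with passage, Lamc1 being added at -1.54. Signs turned for Lama4 in DPCs (FPKM, minimum mean count of 100) and Agrn in DSCs (total counts), both with intervals that included 0. Scaling by total counts put the median of all genes at 0.09 and 0.08 for DPCs over DSCs at P3 and P9.

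On counts per kilobase of annotated exons, given for DPCs at P3 and P9 and then DSCs at P3 and P9, the shares of Lama2 were 28.65%, 8.166%, 41.88% and 47.61%, those of Lama4 37.69%, 41.19%, 29.8% and 22.39%, and those of Lama5 33.66%, 50.64%, 28.31% and 30.0%. Lamb1 had 48.77%, 26.08%, 10.51% and 23.37% of the beta chains, and Nid1 77.27%, 81.41%, 75.11% and 89.19% of the nidogens.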
